A study of Mus musculus with 6 samples.

Results

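Eph receptors are receptor tyrosine kinases and ephrins are their membrane-bound ligands. They were examined in 6 expression arrays of mouse intestinal tumors, as 10 listed genes: the receptors Epha1, Epha2, Epha4, Ephb2, Ephb3, Ephb4 and Ephb6 and the ligands Efna1, Efnb1 and Efnb2. Members were the probe sets, each a group of short probes to 1 transcript or a few of a gene, whose platform annotation named exactly 1 gene and that gene was listed. This gave 18 of 22690 probe sets, 9 for receptors and 9 for ligands, covering 9 of the 10 genes. No probe set of the annotation used here names Ephb2, which is therefore not analysed here.

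All 6 tumors came from mice that carry Apc1638N, an allele of the tumor suppressor gene Apc that predisposes to intestinal tumors, and that lack Rb1, the retinoblastoma tumor suppressor. The arrays hold 3 tumors of the duodenum and 3 of the cecum, labelled as biological replicates. The duodenal group includes tumor tissue from the pylorus, where the stomach ends. Tumors are numbered within each site, and the labels do not say whether tumors with the same number shared a mouse. The sources used here do not give how Rb1 was removed, the strain or the ages. Normal intestine and Rb1-intact tumors are not analysed here, and all values compare the 2 tumor sites.

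Ephrins bind Eph receptors on neighbouring cells, and both partners can signal, the receptor forward into its cell and the ephrin in reverse into its own. A-type ephrins are held by a lipid anchor and mainly bind EphA receptors, and B-type ephrins span the membrane and mainly bind EphB receptors. In the intestine, EphB2 and EphB3 are known as targets of beta-catenin and Tcf that are high at the crypt base, while B-type ephrins increase toward the differentiated cells, and repulsion between them keeps cell positions in order. In colorectal tumors EphB receptors are known for limiting spread, so both partners are of interest where Apc is mutated.

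Array medians ran from 164.6 to 181.8 intensity units, and with 6 arrays their number sets the precision. Of 13866 probe sets bright enough to test, 1290 differed between the sites with an adjusted p under 0.05 (9.3%; limma, described under processing), 5.24% higher and 4.07% lower in cecal tumors. Rb1, measured by 1 probe set, ranged from 306.7 to 387.5 over the arrays and did not pass (limma adjusted p = 0.663). Whether that probe set lies in the altered part of the gene was not determined, so it does not check the genotype. Levels of Xist and of Y-linked genes showed 4 arrays of male and 2 of female origin, and tumor 2 of each site was from a female. The marker genes of the stomach and pylorus separated the sites fully. All 11 tested were lower in cecal tumors, where 4.75% of all tested genes were, but most were bright enough to test only through the duodenal tumors. The list was also chosen with earlier results of these data known, so the count is a description. Its summed intensity was 67818 to 103020 in duodenal and 1262 to 2118 in cecal tumors. These are whole tumor pieces, so fewer cells of a type and less RNA per cell cannot be told apart.

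All 3 ligand genes had probe sets that rose in cecal tumors, and no receptor probe set passed. Of 9 ligand probe sets tested, 5 rose (limma, adjusted p under 0.05), 1 of Efna1, 2 of Efnb1 and 2 of Efnb2. Of all tested probe sets 5.24% rose. Probe sets of the same gene measure the same tumors and are not independent. All 9 ligand probe sets had a positive log2 fold, cecal minus duodenal, from 0.32 to 0.98. Their median was 0.77, where the median over all tested probe sets was -0.04. Of the 9, 2 of Efnb2 were bright enough to test only through their cecal values, which favours a positive fold and separation. For 8 of the 9 every cecal tumor exceeded every duodenal tumor, and 13.8% of all tested probe sets were separated in that direction, 29.5% in either. Of 6 receptor probe sets tested, for 5 genes, none passed, and 1 had an unadjusted p under 0.05. Receptor folds ran from -0.89 to 0.40, 3 positive and 3 negative. With each gene represented by its brightest probe set, 1 of the 8 tested genes rose, Efnb2, and 0 fell, with 1 having an unadjusted p under 0.05 in the downward direction (of all 8129 tested genes 10.4% passed, 5.7% upward and 4.75% downward). With a gene's probe sets averaged, all 3 ligand genes rose (adjusted p = 0.0381, 0.0176 and 0.0207 for Efna1, Efnb1 and Efnb2), where 6.02% of all genes did. When blocked on the tumor number, 2 genes rose by their brightest probe set, Efna1 and Efnb2, and 1 fell, Ephb3, where 6.74% and 6% of all genes did.

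**Figure D1:**
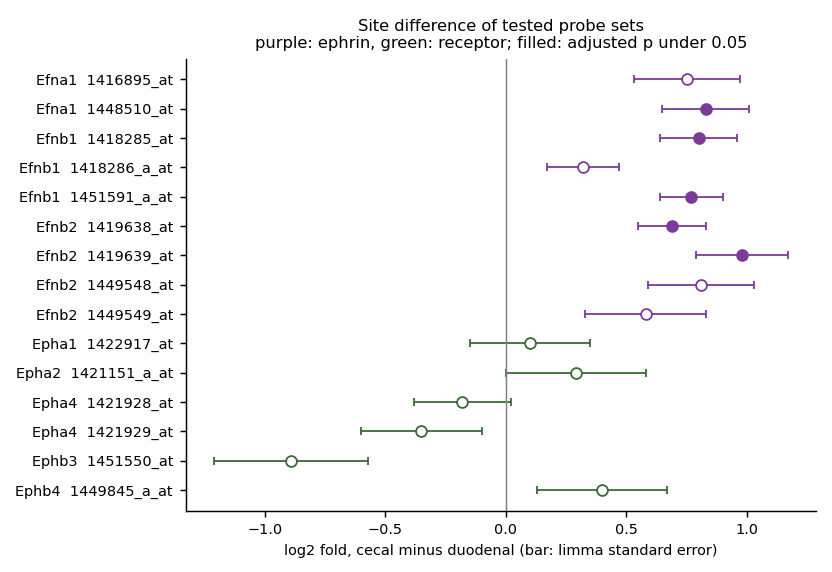
Fitted log2 fold, cecal minus duodenal, of the 15 tested Eph and ephrin probe sets, with bars for the limma standard error; purple marks ephrins, green receptors, and filled points passed at an adjusted p under 0.05. The 9 ephrin points lie between 0.32 and 0.98 and the 6 receptor points between -0.89 and 0.40.

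Promoters are shown for the 3 ligand genes, which all had probe sets that rose, and for Ephb3, the tested receptor whose sites did not overlap although it did not pass (limma adjusted p = 0.142). They are the 250 bases before each annotated transcription start in RefSeq, assembly GRCm38.p6, written 5′ to 3′ on the strand of the gene with CpG dinucleotides in capitals. RefSeq gave 2 starts for Efna1, and its windows are chr3:89280952-89281201 and chr3:89279646-89279895, both on the minus strand. The windows of Efnb1 (chrX:99135811-99136060, plus strand), Efnb2 (chr8:8661243-8661492, minus strand) and Ephb3 (chr16:21204545-21204794, plus strand) follow.
Efna1, first start: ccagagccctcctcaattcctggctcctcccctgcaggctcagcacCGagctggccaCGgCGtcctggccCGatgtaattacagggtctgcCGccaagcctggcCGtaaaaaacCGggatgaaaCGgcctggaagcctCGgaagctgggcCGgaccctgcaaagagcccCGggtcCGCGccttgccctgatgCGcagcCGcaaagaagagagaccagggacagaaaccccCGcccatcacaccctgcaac
Efna1, second start: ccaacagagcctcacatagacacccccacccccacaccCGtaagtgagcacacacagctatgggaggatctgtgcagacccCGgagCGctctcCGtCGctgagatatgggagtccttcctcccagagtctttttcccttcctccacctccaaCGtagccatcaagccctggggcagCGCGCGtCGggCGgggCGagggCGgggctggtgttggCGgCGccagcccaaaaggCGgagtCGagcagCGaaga
Efnb1: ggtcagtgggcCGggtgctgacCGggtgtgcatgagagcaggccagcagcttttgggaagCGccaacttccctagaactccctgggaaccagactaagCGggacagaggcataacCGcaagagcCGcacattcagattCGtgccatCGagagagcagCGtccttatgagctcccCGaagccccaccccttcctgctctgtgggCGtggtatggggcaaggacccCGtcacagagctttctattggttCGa
Efnb2: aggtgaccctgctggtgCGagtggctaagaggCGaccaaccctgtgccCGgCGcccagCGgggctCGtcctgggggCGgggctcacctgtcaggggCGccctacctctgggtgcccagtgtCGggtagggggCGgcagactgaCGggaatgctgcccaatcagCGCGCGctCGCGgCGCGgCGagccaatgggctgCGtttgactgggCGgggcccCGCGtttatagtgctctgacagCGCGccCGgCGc
Ephb3: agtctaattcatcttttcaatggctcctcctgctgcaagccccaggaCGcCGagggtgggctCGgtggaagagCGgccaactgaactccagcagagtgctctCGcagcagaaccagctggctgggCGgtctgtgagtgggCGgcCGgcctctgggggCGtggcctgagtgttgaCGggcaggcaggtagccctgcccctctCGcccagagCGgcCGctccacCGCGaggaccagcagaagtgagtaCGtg

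All 10 listed genes had a promoter window in RefSeq, 11 windows in all, with 9 to 27 CpG dinucleotides each. The Efnb2 and Ephb6 windows held the most, 27 each, and the median over 32851 windows of the same length was 6. Of all those windows, 40.3% held at least 9. The motifs CTTTGAT and CTTTGAA of Tcf factors were searched on both strands, and they cannot start at the same base of a strand. Of the 11 windows 1 held either motif, that of Epha2 with CTTTGAA on the strand of the gene, starting 209 bases before the transcription start, and 7.48% of all windows did. The windows of Ephb2 and Ephb3 held neither, which says only that these letters are not in this stretch.

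Efnb2, a B-type ephrin also known as the arterial partner of EphB4, was measured by 4 probe sets that all lay higher in cecal tumors. The brightest, 1419639_at, read 527.6, 615.9 and 387.3 in duodenal tumors 1, 2 and 3 and 1164.3, 898.8 and 977 in cecal tumors 1, 2 and 3. Every cecal tumor was thus above every duodenal one, and the means were 510.3 ± 115.3 (SD, n = 3) and 1013.4 ± 136.4 (n = 3). The log2 fold was 0.98 ± 0.19 (SE), or 1.98-fold on the scale of intensity plus 16, and it passed (limma adjusted p = 0.0157). Probe set 1419638_at read 287.3, 307 and 256.3 in the duodenal tumors against 497.9, 436.5 and 464 in the cecal ones. Its 3 cecal tumors lay within a 1.14-fold range of each other, and the log2 fold was 0.69 ± 0.14 (SE; limma adjusted p = 0.0174).

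The other 2 Efnb2 probe sets were near the level below which probe sets were not tested, 92.4 to 100.6 depending on the array. Each exceeded it on 4 of the 6 arrays, the 3 cecal ones and that of duodenal tumor 2. Testing needed 3 arrays, so their cecal values admitted them, which favours a positive fold. Probe set 1449548_at read 89, 125.5 and 82.9 in the duodenal tumors against 196.8, 218.1 and 143.5 in the cecal ones. Its groups did not overlap, but it did not pass (log2 fold 0.81 ± 0.22 SE, limma adjusted p = 0.0607, or 0.0319 when blocked on the tumor number). Probe set 1449549_at read 56.5, 114.8 and 83.6 in the duodenal tumors against 131, 116.9 and 144.6 in the cecal ones, so duodenal tumor 2 came close to cecal tumor 2 (log2 fold 0.58 ± 0.25 SE, limma adjusted p = 0.205). The call of 1419639_at was lost without cecal tumor 1 (adjusted p = 0.065). That of 1419638_at was lost without duodenal tumor 1 (0.0582) or 3 (0.0578) and without cecal tumor 1 (0.0641) or 2 (0.053).

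Efnb1, the X-linked B-type ephrin, had 2 of 3 probe sets that rose. Probe set 1451591_a_at read 322.4, 284.8 and 331.1 in the duodenal tumors against 522.4, 588.2 and 527.6 in the cecal ones. Both groups were tight, with 312.8 ± 24.6 and 546.1 ± 36.6 (SD, n = 3 each), and they did not overlap. The log2 fold was 0.77 ± 0.13 (SE; limma adjusted p = 0.00966), the smallest adjusted p among the members, and it passed in all 6 fits that left out 1 tumor (0.0246 to 0.04995). Probe set 1418285_at read 251.7, 211.4 and 273 in the duodenal tumors against 488.5, 457 and 370.8 in the cecal ones. It also showed no overlap and a log2 fold of 0.80 ± 0.16 (SE; limma adjusted p = 0.0199).

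The brightest Efnb1 probe set, 1418286_a_at, did not pass. It read 488.9, 423.1 and 380.7 in the duodenal tumors against 546.4, 600.1 and 478.6 in the cecal ones, so duodenal tumor 1 exceeded cecal tumor 3. Its log2 fold of 0.32 ± 0.15 (SE; limma adjusted p = 0.249) was the lowest of the 9 ligand probe sets. The call of 1418285_at was lost without duodenal tumor 1 (adjusted p = 0.0592) or 2 (0.05003) and without cecal tumor 1 (0.077) or 2 (0.0841). On the female arrays, tumor 2 of each site, Efnb1 on 1451591_a_at was the lowest of the duodenal and the highest of the cecal values. With the 4 male arrays alone its log2 fold was 0.66 and did not pass (limma adjusted p = 0.0998).

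Efna1, an A-type ephrin first described as induced by tumor necrosis factor in endothelium, was measured by 2 probe sets that both separated the sites. Probe set 1448510_at read 254.3, 193.7 and 236 in the duodenal tumors against 512.5, 377.1 and 369.9 in the cecal ones. All cecal tumors were higher, cecal tumor 1 most of all, and the log2 fold was 0.83 ± 0.18 (SE; limma adjusted p = 0.0244). The brighter probe set, 1416895_at, read 336.4, 257.9 and 336 in the duodenal tumors against 731.6, 467.1 and 430.1 in the cecal ones. Cecal tumor 1 again stood highest, the means were 310.1 ± 45.2 and 542.9 ± 164.4 (SD, n = 3 each), and it did not pass (log2 fold 0.75 ± 0.22 SE, limma adjusted p = 0.0734, or 0.0383 when blocked on the tumor number). The call of 1448510_at was lost without duodenal tumor 2 (adjusted p = 0.0605) or 3 (0.06) and without cecal tumor 1 (0.0762) or 2 (0.0614).

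**Figure D2:**
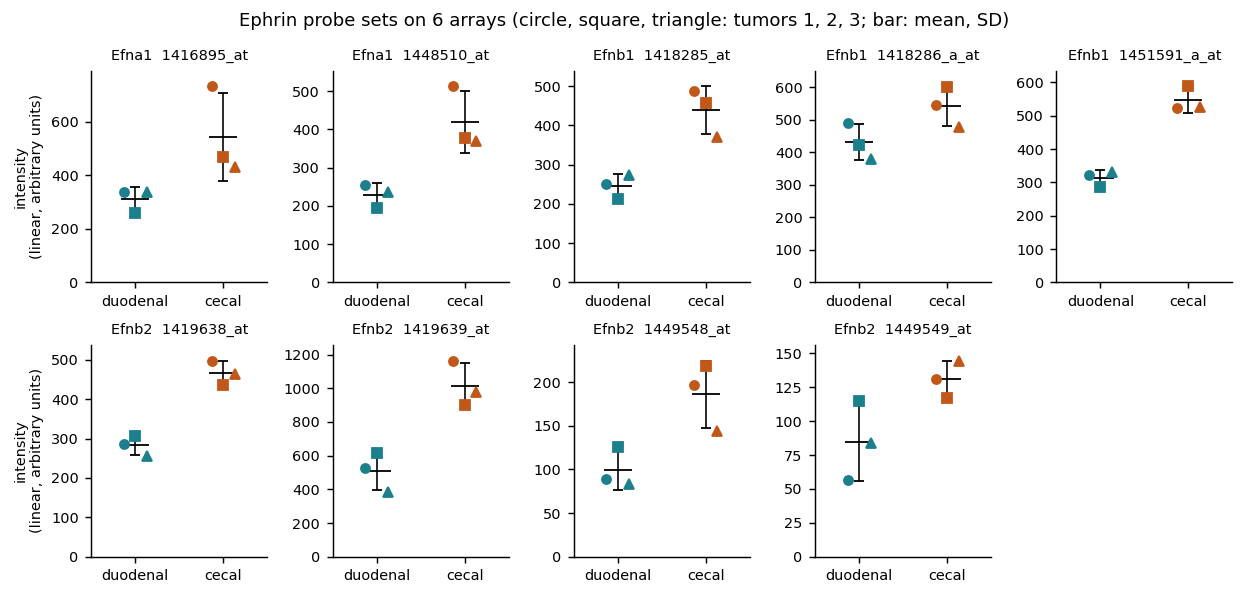
Linear intensity of the 9 ephrin probe sets by site, with 1 marker per tumor (circle, square and triangle for tumors 1, 2 and 3), a bar for the mean and whiskers for the SD over 3 tumors. The 3 cecal values lie above the 3 duodenal values in every panel except Efnb1 1418286_a_at, where duodenal tumor 1 (488.9) exceeds cecal tumor 3 (478.6).

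Ephb3, the receptor of the crypt base and the only EphB partner of that kind measured, was lower in all cecal tumors but did not pass. Its 1 probe set, 1451550_at, read 677.1, 690.4 and 860.2 in the duodenal tumors against 218.5, 437.9 and 617.7 in the cecal ones. The groups did not overlap, and the cecal tumors spread over a 2.83-fold range against 1.27-fold in the duodenal ones. The means were 742.6 ± 102.1 and 424.7 ± 199.9 (SD, n = 3 each), and the log2 fold was -0.89 ± 0.32 (SE; limma adjusted p = 0.142, unadjusted p = 0.0249). When blocked on the tumor number it passed (adjusted p = 0.0457), where 5.21% of all probe sets fell. It also passed without cecal tumor 3 (0.0413), the cecal tumor with the highest value. Of all tested probe sets, 15.7% were separated with cecal tumors lower.

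Ephb4, the receptor of Efnb2 known from veins, read 406.8, 457.3 and 264.9 in the duodenal tumors against 339.5, 618.8 and 551.4 in the cecal ones on 1449845_a_at. The groups overlapped, since cecal tumor 1 was below duodenal tumors 1 and 2 (log2 fold 0.40 ± 0.27 SE, limma adjusted p = 0.428). Ephb6, a receptor with no kinase activity of its own, read 78.1, 84.7 and 43.2 in the duodenal tumors against 25.9, 32.5 and 23.3 in the cecal ones on 1418051_at. Its duodenal values were all the higher, but every array was below the level for testing, so no fold is given.

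Epha2, an epithelial receptor for Efna1, read 351.1, 409.3 and 285 in the duodenal tumors against 298, 693.6 and 367.8 in the cecal ones on 1421151_a_at. The groups overlapped and cecal tumor 2 alone stood out (log2 fold 0.29 ± 0.29 SE, limma adjusted p = 0.618; the fold was -0.06 without that tumor). Epha1 had 1 probe set bright enough to test, 1422917_at, with 141.8, 119.7 and 128.4 in the duodenal tumors against 102.2, 130.3 and 205.8 in the cecal ones. Cecal tumor 1 was the lowest and cecal tumor 3 the highest of all 6 (log2 fold 0.10 ± 0.25 SE, limma adjusted p = 0.848; -0.15 without cecal tumor 3). The other 2 Epha1 probe sets, 1432399_a_at and 1432400_at, were below the level for testing on every array, at 4.1 to 35.1, so no fold is given. Probe set 1432399_a_at read 22.4, 12.5 and 14.6 in the duodenal tumors against 5.4, 8.9 and 4.1 in the cecal ones, without overlap. The sites overlapped on 1432400_at.

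Epha4, a receptor that binds ephrins of both types, was measured by 2 dim probe sets, above that level on 6 and on 5 arrays. Probe set 1421928_at read 110.2, 171.3 and 130.3 in the duodenal tumors against 111.4, 113.6 and 127.1 in the cecal ones (log2 fold -0.18 ± 0.20 SE, limma adjusted p = 0.64). Probe set 1421929_at read 103.4, 128.9 and 121 in the duodenal tumors against 58.1, 101.4 and 114.6 in the cecal ones (log2 fold -0.35 ± 0.25 SE, limma adjusted p = 0.45). The groups overlapped on both. On the tested probe sets of these 4 receptors, Epha1, Epha2, Epha4 and Ephb4, no difference was larger than the spread between tumors. That does not show that the sites are alike.

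**Figure D3:**
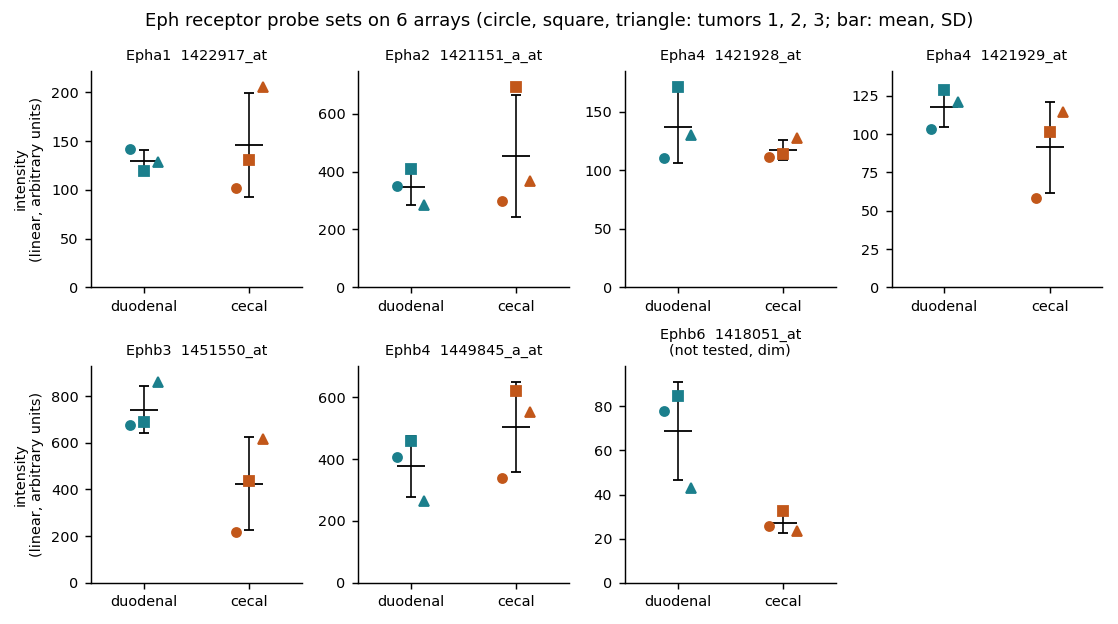
Linear intensity of the 6 tested Eph receptor probe sets and of Ephb6, which was too dim to test, by site, with 1 marker per tumor (circle, square and triangle for tumors 1, 2 and 3), a bar for the mean and whiskers for the SD. Ephb3 and Ephb6 are the panels whose sites do not overlap, with Ephb3 at 677.1 to 860.2 in duodenal and 218.5 to 617.7 in cecal tumors.

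How firmly these calls stand depends on each tumor, and the plot of adjusted p under other settings shows it for the 5 called probe sets and Ephb3. The 9 ligand folds were positive in all alternatives run, and the count of member probe sets higher in cecal tumors ran from 1 (without cecal tumor 1) to 6 (without cecal tumor 3) when 1 tumor was left out. With the 4 male arrays alone the ligand folds were 0.24 to 1.21 and 1 member probe set passed, 1419639_at of Efnb2 (limma adjusted p = 0.0239). When blocked on the tumor number 7 rose and 1 fell, where 6.12% and 5.21% of all probe sets did.

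**Figure D4:**
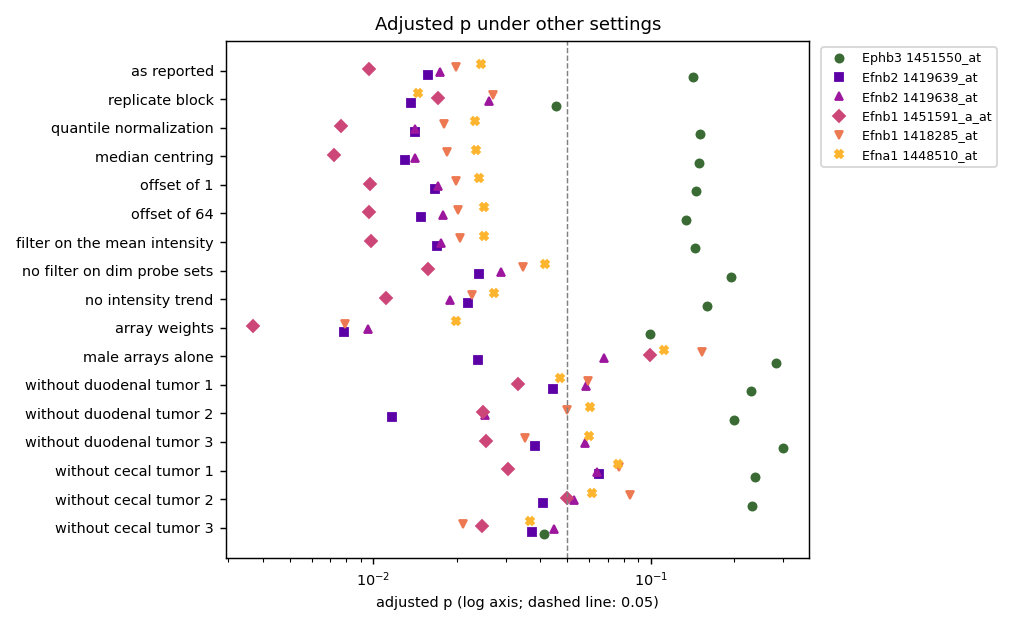
Adjusted p (log axis) of the 5 ephrin probe sets that passed and of Ephb3 under the reported fit and other settings, 1 per line, with a dashed line at 0.05. Points of the ephrins cross the line mainly where 1 tumor was left out or the male arrays were used alone, and Ephb3 lies left of it with the replicate block and without cecal tumor 3.

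The tumors' cell makeup was read from marker lists. Of all tested genes 5.7% rose and 4.75% fell in cecal tumors, the shares to set beside each marker list. Of 10 epithelial genes 3 rose and none fell. The list's summed intensity was 63774 to 71625 in duodenal and 80112 to 83009 in cecal tumors. The tight junction genes Cldn3 (limma adjusted p = 0.00479) and Cldn7 (0.0103) and the microvillus gene Vil1 (0.0264) were those that rose, and they were picked by their values. Blocking on the tumor number added Krt20, a keratin of differentiated epithelium (adjusted p = 0.0767, or 0.0067 blocked). Vil1 lost its call without any single tumor but duodenal tumor 3 (0.0549 to 0.1). The brightest epithelial genes, the keratins Krt8, Krt19 and Krt18, did not pass. Of 9 tested fibroblast and pericyte genes 2 rose, Vim and Col3a1 (limma adjusted p = 0.00981 and 0.0173), and the list summed to 14591 to 17703 against 19367 to 23648, led by Col3a1, Dcn and Col1a2. The fold was positive for 8 of the 9 and negative for Rgs5. Its brightest probe set read 1998.7, 1241.7 and 1493.3 in duodenal against 1239.9, 1109.3 and 872.7 in cecal tumors. These did not overlap but did not pass (log2 fold -0.54, limma adjusted p = 0.154). The call of Col3a1 was lost without duodenal tumor 1 (0.0646) or cecal tumor 1 (0.058), and the block added Col1a1 (0.0736, or 0.0101 blocked).

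None of 8 tested endothelial genes passed, with 2 at an unadjusted p under 0.05 (limma), and their list of 12 genes summed to 1585 to 1931 in duodenal and 1599 to 1866 in cecal tumors. The brightest of them were Esam at 397.5 ± 93.3 and 246.9 ± 17.5 (SD, n = 3 each), Eng at 322.3 ± 25.4 and 381.7 ± 43.6 and Vwf at 128.6 ± 25.4 and 226.2 ± 70.5. The defining endothelial gene Pecam1 read 155.8 ± 17.7 in duodenal and 166.9 ± 16.7 in cecal tumors. None of 7 smooth muscle genes passed (limma, 0 at an unadjusted p under 0.05), and the list summed to 4830 to 8326 against 5529 to 6937, led by Acta2, Tagln and Actg2. Of 8 T cell genes 1 was bright enough to test, Thy1, which rose (limma adjusted p = 0.0326) and which fibroblasts also express. Its call was lost without any single tumor but duodenal tumor 1 (0.0713 to 0.105). The next brightest of the list, Cd3e and Cd3g, averaged 66.5 and 58.9 in the duodenal against 91.4 and 71.3 in the cecal group. Cd4 and Cd8a averaged 11.6 and 29.9 in the duodenal against 13.3 and 38.1 in the cecal group. All of these were too dim to test, and the list summed to 269 to 428 against 512 to 533. Of 5 tested genes of macrophages and other leukocytes, led by Lyz2, Csf1r and Ptprc, none passed (limma, 2 at an unadjusted p under 0.05), with sums of 5728 to 6508 against 6831 to 8400. Most of these sums was Lyz2, at 3609 to 4303.8 in duodenal and 4541.2 to 6103.6 in cecal tumors. Of the 5 folds 4 were positive. Cd68 went the other way, at 297.6, 297.5 and 277.5 in duodenal against 266.6, 262.7 and 257.4 in cecal tumors (limma adjusted p = 0.578). The summed levels of the epithelial, fibroblast, T cell and leukocyte lists were thus higher in every cecal than in every duodenal tumor, as were 8 of the 9 ligand probe sets, and that of the stomach list was lower. The part of these lists in the ligand differences was not tested.

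Of the other family members, 10 genes with 15 probe sets were on the array, and 2 were bright enough to test. Efna4, an A-type ephrin, read 283.4, 403.3 and 335.6 in the duodenal tumors against 127.4, 218.7 and 259.8 in the cecal ones on 1421784_a_at. Its groups did not overlap, and it lay lower in cecal tumors, the direction opposite to that of Efna1, but it did not pass (log2 fold -0.75 ± 0.26 SE, limma adjusted p = 0.118, or 0.0419 when blocked on the tumor number). Efna3 read 178.5, 210 and 169.4 in the duodenal tumors against 140.2, 151 and 208.5 in the cecal ones, which overlapped (log2 fold -0.16, limma adjusted p = 0.678). The remaining 8 genes, Efna2, Efna5, Efnb3, Epha3, Epha5, Epha6, Epha7 and Epha8, had 13 probe sets that all stayed at or below 65.1.

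Among genes known to act with Eph receptors and ephrins, few passed, and of all tested genes 10.4% did. Of 25 tested adaptors, kinases and phosphatases none did, with 1 at an unadjusted p under 0.05 (limma); the smallest adjusted p-values were those of the adaptors Grb10 (0.201) and Grb2 (0.231).

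Of 12 tested proteases and adhesion partners 1 rose and none fell, where 5.7% and 4.75% of all tested genes did. When blocked on the tumor number 2 rose and none fell, where 6.74% and 6% of all genes did. The 1 in the reported fit was Mmp2, a matrix metalloproteinase made mainly by stromal cells, at 514, 653.4 and 741 in the duodenal tumors against 968.7, 1236.7 and 1231.5 in the cecal ones (log2 fold 0.84 ± 0.17 SE, limma adjusted p = 0.0201). Its second probe set also rose (0.75, adjusted p = 0.0188). For the brighter one, leaving out duodenal tumor 1 (0.0656), cecal tumor 2 (0.0857) or cecal tumor 3 (0.0567) ended the call. Adam10, the protease that cuts ephrins, and Cdh1, the epithelial cadherin, did not pass (adjusted p = 0.552 and 0.585). These 2 were named for their role and outside the naming rule. The gene added by the block was Cldn4, a tight junction gene, whose groups overlapped (log2 fold 0.96 ± 0.29 SE, limma adjusted p = 0.084, or 0.00894 blocked).

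Ephb3 was set beside 17 tested Wnt and beta-catenin target genes of the intestine. By their brightest probe sets 1 fell and none rose in cecal tumors, where 4.75% and 5.7% of all tested genes did. The 1 was Cd44 (log2 fold -0.71 ± 0.15 SE, limma adjusted p = 0.0215), and its call was lost without duodenal tumor 1 (0.082) or 3 (0.0667) and without cecal tumor 1 (0.0852) or 2 (0.0873). The dimmer Cd44 probe set did not pass (log2 fold -0.69, limma adjusted p = 0.0533). For Sox9 the brighter probe set did not pass (-0.92, adjusted p = 0.0608) and the dimmer one fell (-0.74, adjusted p = 0.0275). The log2 fold was negative for 14 of the 17 and for 4592 of all 8129 tested genes. The median was -0.69 for the 17 and -0.05 for all tested genes. When blocked on the tumor number 7 fell, where 6% of all genes did. For 13 of the 17 the lowest array of all 6 was cecal tumor 1, as it was for Ephb3 and for 28.6% of all tested genes. Cecal tumor 1 was the most frequent lowest array over all genes and had the lowest array median, 164.6, and the part of this in the Wnt target and Ephb3 values was not tested. Axin2, a feedback inhibitor of Wnt signaling named for its role outside the naming rule, read 1013.2, 2205.9 and 1088.4 in the duodenal tumors against 405.4, 1061.4 and 1317.3 in the cecal ones. Its groups overlapped (limma adjusted p = 0.411), with duodenal tumor 2 the highest array, which for Ephb3 was duodenal tumor 3.

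**Figure D5:**
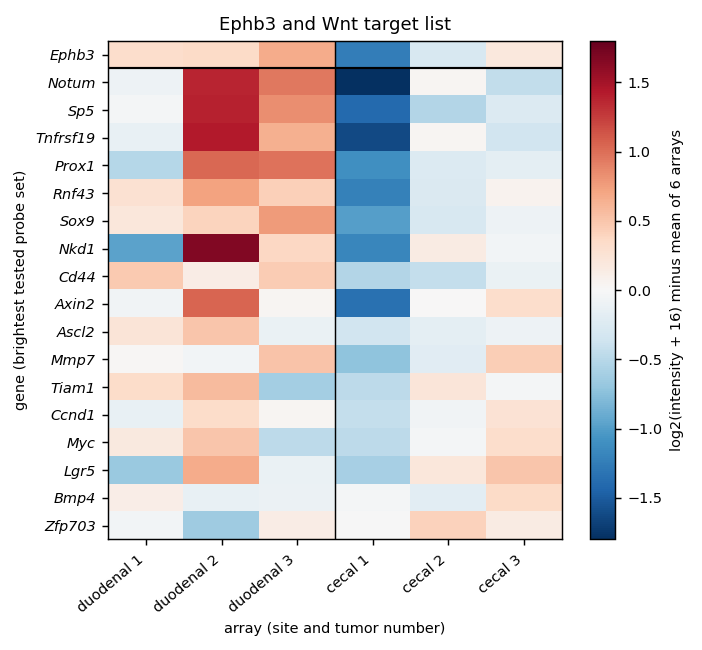
Ephb3 (top row) and the 17 tested Wnt target genes on the 6 arrays, as log2(intensity + 16) minus the gene's mean over the arrays (colour scale; red above, blue below the mean), ordered by fold below the line. Cecal tumor 1 is the bluest column for Ephb3 and is the lowest array for 13 of the 17 other genes, against 28.6% of all tested genes.

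The genes whose pattern over the 6 arrays was most like that of Efnb2 were Triap1, Pawr and Appl1, with Pearson correlations of 0.997, 0.996 and 0.996 among the brightest tested probe sets. Appl1 rose with a log2 fold of 1.78 (limma adjusted p = 0.00656) and Pawr with one of 0.57 (0.0438), and Triap1 did not pass (0.44, adjusted p = 0.0913). For Ephb3, picked for this after its values were seen, they were Nrd1, Pdia4 and Shroom3, at 0.998, 0.995 and 0.994, and none of the 3 passed (limma adjusted p = 0.355, 0.224 and 0.125). These correlations rest on 6 arrays that share the 2 sites, were the highest of 8129 genes, and are a description.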

How the data were processed

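Tumor RNA was hybridised to 1 Affymetrix array per tumor. The authors deposited linear probe set intensities made with MAS5, per the submitters' processing notes; the sources used here give no version, scaling target or detection calls for it. The trimmed mean was 499.9 on every array, and no further normalization was added. Sample titles gave the groups and the replicate numbers. The 64 control probe sets were left out; 20380 probe sets named 1 gene, 691 several and 1555 none.

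Tested probe sets exceeded the 40th percentile of an array (92.4 to 100.6) on 3 or more of the 6 arrays. Values were compared as log2(intensity + 16), a scale on which changes of dim genes are understated, with limma 3.58.1 in R 4.3.3 (eBayes, intensity trend on); p-values are two-sided and Benjamini-Hochberg adjusted over all 13866 tested probe sets, with a threshold of 0.05. A gene stands for its brightest tested probe set. Named genes were every member and family gene, up to 4 passing genes per pathway list (or the 2 with the smallest adjusted p), the 3 brightest markers per list, and the 3 most alike genes of a passing member. The members and lists were chosen with earlier results of these data known. Of the pathway lists, 1 pathway list is not reported here. The procedure was tested on simulated data. Figures used matplotlib 3.10.9.

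Replicate numbers 1 to 3 recur at both sites. Same-numbered tumors had deviations from the site means that correlated at 0.274, 0.299 and 0.203, and differently numbered ones at -0.2 to -0.026. Deviations within a site cancel out, so positive values of the first kind make the second negative on balance. Tumor 2 was female and tumors 1 and 3 were male at both sites. The labels do not say what the numbers share, and whether same-numbered tumors came from the same mouse was not tested. The reported fit has no block, and the block is an alternative. Promoter windows of 250 bases, without the 50 bases after the start, were read in place of the planned windows that include them. No protein sequences were used here.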

Additional observations from a re-analysis of the deposited data

How the results depend on the processing

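The count of Eph and ephrin genes higher in cecal tumors, 1 as reported, was 3 with a gene's probe sets averaged, 2 with the replicate block, 0 at an adjusted p under 0.01 and 0 to 1 when 1 tumor was left out. The count lower, 0 as reported, was 1 with the replicate block, for genes and probe sets alike, and 0 to 1 when 1 tumor was left out. The count of member probe sets higher, 5 as reported, was 1 with the male arrays alone, 1 at an adjusted p under 0.01 and 1 to 6 without 1 tumor, lowest without cecal tumor 1. Over the whole array, 1290 probe sets were called as reported, 1939 with array weights, 695 with the male arrays alone, 506 at an adjusted p under 0.01 and 658 to 1194 without 1 tumor. The log2 fold of Epha1 ran from -0.15 to 0.31 and that of Epha2 from -0.056 to 0.53 without 1 tumor, so their signs are not settled; neither passed anywhere. Of 893 other values and list counts under alternatives, 771 kept direction and side of the threshold, 59 lost and 13 gained a call, and 48 counts moved by over 1.5 times. Other scalings moved the median log2 fold of all probe sets from -0.042 to -0.017 (quantile) and -0.004 (median centring). With 3 tumors per site, small differences may be missed.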

Other observations

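Epha7, an EphA receptor outside the tested genes, had 2 of 3 probe sets that separated the sites at low intensity. It was picked by its values among the 13 dim probe sets of the other family genes. Probe set 1451991_at read 60.4, 57 and 65.1 in the duodenal tumors against 18.7, 2.6 and 9.4 in the cecal ones, and 1427528_a_at read 51, 44.8 and 46.2 against 4.3, 12.2 and 4.2. Without the intensity filter their adjusted p-values were 0.0139 and 0.00837 (limma), where 5.03% of 22626 probe sets were called. The third, 1452380_at, overlapped between the sites (adjusted p = 0.862). Of the other dim probe sets of these family genes, 1425575_at of Epha3 and 1419341_at of Epha8 were also lower in every cecal tumor. They did not pass in that fit (limma adjusted p = 0.0933 and 0.194), and the rest overlapped. Every one of these values is below the level for testing, so no fold is given.

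Ephb6, also dim, had an adjusted p of 0.0932 (limma) in the same unfiltered fit, with duodenal tumor 3 at 43.2 as the lowest of its 3 duodenal values.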
